A study of Mus musculus with 6 samples.

Results

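The Polycomb and trithorax genes examined here encode 36 chromatin proteins, chosen by name for their place in Polycomb repressive complex 2 (PRC2, 9 genes), Polycomb repressive complex 1 (PRC1, 18 genes) and the MLL/COMPASS complexes with the demethylases of the PRC2 mark (9 genes). Of these, 35 were measured, among 19938 genes in all. Cbx6 was not analysed here. Expression was measured in mouse embryonic stem (ES) cells with 1-colour arrays of biotin-labelled RNA, on 3 wild-type (WT) arrays, numbered 1, 2 and 3, and 3 Satb1-/- arrays, numbered as clones 1-1, 1-2 and 2-1. All cells of both groups were kept in serum medium with LIF, carried a hygromycin and thymidine kinase marker in the Oct4 locus, and spent 3 days under hygromycin on irradiated feeder cells, which were removed by letting them settle before RNA was prepared. Whether the replicates were cultured apart, and what the first number of a clone stands for, is not in the labels. P-values therefore rest on the variation among these 6 arrays, some of which may be technical.

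Polycomb and trithorax proteins hold genes in opposite states. PRC2 places a repressive methyl mark on histone H3, PRC1 places ubiquitin on histone H2A and compacts chromatin, and the COMPASS complexes place an activating methyl mark on histone H3. In ES cells these marks meet at the promoters of many developmental regulators, which are held silent but ready for use. Satb1, the protein missing from the knockout cells, is a DNA-binding organiser of chromatin, and the comparison asks whether cells without it express the Polycomb and trithorax machinery at a different level.

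1 of the 35 genes passed the test: Ash2l, a core subunit of all COMPASS complexes, fell in the Satb1-/- arrays to a level 1.8-fold below WT. Aebp2, an accessory subunit of PRC2, read 1.4-fold lower and missed the threshold narrowly. The catalytic and scaffold subunits of PRC2 (Ezh2, Eed, Suz12), the ubiquitin ligases of PRC1 (Rnf2, Ring1) and the COMPASS core subunits Wdr5, Rbbp5 and Dpy30 did not pass. Of all genes, 1.4% passed in either direction (limma, Benjamini-Hochberg adjusted p under 0.05), 0.923% as higher and 0.476% as lower, so that 1 of 35 members (2.86%) is a count near the background. Groups did not overlap for 6 members (17.1%), against 15.1% of all genes. By direction, 1 member (2.86%) was higher and 5 (14.3%) were lower, against 8.18% and 6.97% of all genes. An unadjusted p under 0.05 was found for 5 members (14.3%), against 10.5% of all genes. Of these members 2 (5.71%) were higher and 3 (8.57%) lower, against 5.92% and 4.55% of all genes. With 35 members these shares rest on counts of 1 to 6. Of the 279 genes that passed, 65.9% were higher, and 77.2% of 206 were when each array was centred on its median.

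**Figure D1:**
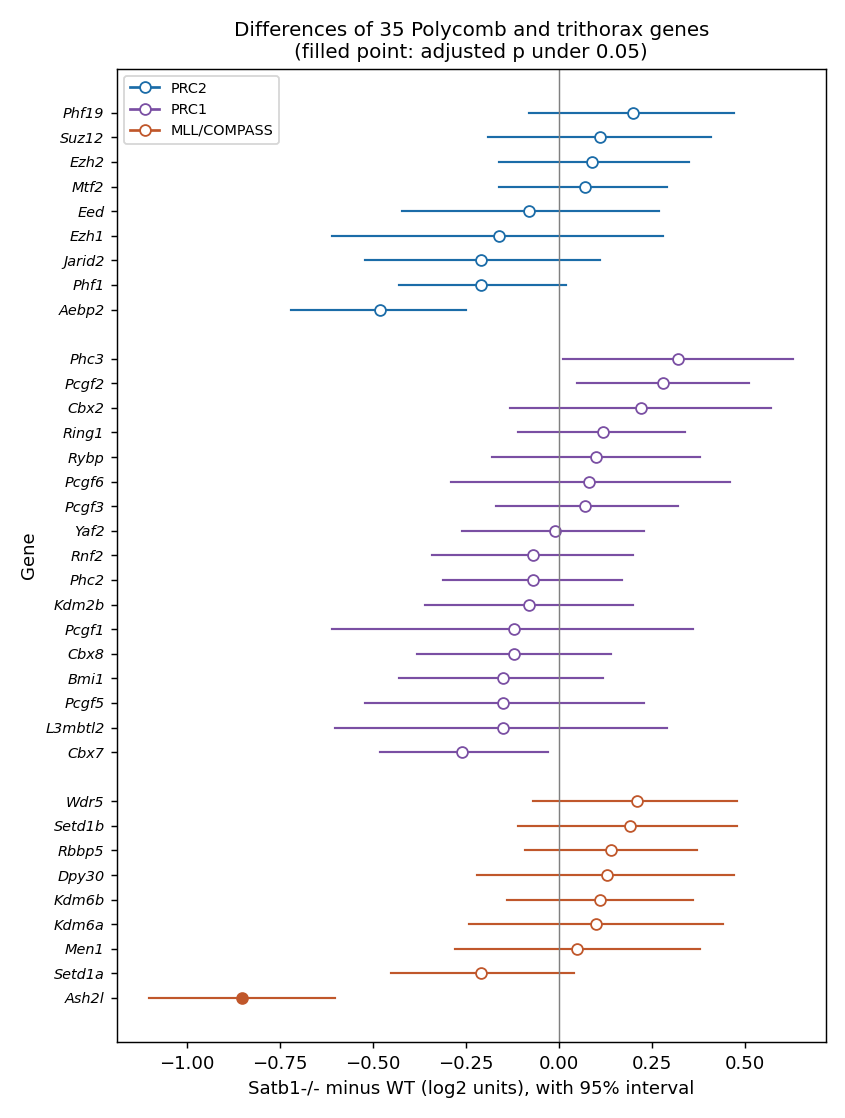
Difference between Satb1-/- and WT arrays (x axis, log2 units) for each of the 35 measured genes (y axis), with limma's 95% interval, by complex. Ash2l, the 1 filled point, lies at -0.85, and the intervals of the other 34 genes lie between -0.72 and 0.63.

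Values are log2 expression values, and differences are Satb1-/- minus WT on that scale, with limma's moderated standard error (SE). Weakly expressed genes show smaller differences on this scale than their RNA does, because signal near background is compressed. Of the 35 members, 33 had a mean level above that of the median gene, and no filter on dim genes was applied. Bmi1 and Cbx8 were the 2 below it. In a bulk sample, fewer cells that express a gene and less RNA of it per cell cannot be told apart.

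The promoters of the genes with the smallest p-values besides Ash2l are shown here because CpG-rich promoters are the sequence feature that Polycomb and COMPASS complexes are known to occupy. They are the 250 bases before the transcription start in RefSeq (GRCm38.p6), 5′ to 3′, with CpG dinucleotides in capitals.
Aebp2 (GRCm38.p6, chr6:140622413-140622662, plus strand): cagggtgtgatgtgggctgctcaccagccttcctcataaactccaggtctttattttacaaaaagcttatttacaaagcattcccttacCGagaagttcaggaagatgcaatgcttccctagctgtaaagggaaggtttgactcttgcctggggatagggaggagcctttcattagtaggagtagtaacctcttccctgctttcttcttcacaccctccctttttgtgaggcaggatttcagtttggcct
Pcgf2 (GRCm38.p6, chr11:97699649-97699898, minus strand): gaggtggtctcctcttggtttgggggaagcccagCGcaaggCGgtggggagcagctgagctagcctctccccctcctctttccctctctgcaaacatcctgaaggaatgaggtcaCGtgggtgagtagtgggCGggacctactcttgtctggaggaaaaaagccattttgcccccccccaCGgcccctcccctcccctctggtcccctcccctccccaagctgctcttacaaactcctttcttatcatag
Cbx7 (GRCm38.p6, chr15:79932647-79932896, minus strand): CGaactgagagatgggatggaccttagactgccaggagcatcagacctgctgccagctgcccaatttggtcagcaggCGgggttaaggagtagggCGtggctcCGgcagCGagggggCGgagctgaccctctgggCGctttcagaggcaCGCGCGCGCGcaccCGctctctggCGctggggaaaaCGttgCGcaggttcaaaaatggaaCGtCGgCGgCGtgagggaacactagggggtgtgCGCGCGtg
Phc3 (GRCm38.p6, chr3:30969416-30969665, minus strand): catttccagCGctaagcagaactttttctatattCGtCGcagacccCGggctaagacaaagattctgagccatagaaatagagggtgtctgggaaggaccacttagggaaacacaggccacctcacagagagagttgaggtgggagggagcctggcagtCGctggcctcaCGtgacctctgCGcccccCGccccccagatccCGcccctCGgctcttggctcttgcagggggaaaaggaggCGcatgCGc
The 300-base window that RefSeq's table gives, which runs 50 bases past the start, was found for 28 of the 35 members, with the start nearest to the gene's annotated 5′ end taken where there were several. Of these windows, 23 (82.1%) had a GC content above 50% and an observed-to-expected CpG ratio above 0.6, against 45.5% of 17492 protein-coding genes. The share was 8 of 9 in PRC2, 12 of 13 in PRC1 and 3 of 6 in MLL/COMPASS. The members' median was 23 CpG per window, and that of all protein-coding genes was 13. Aebp2 (4 CpG), Pcgf2 (10), Men1 (11) and Dpy30 (1) fell short of the ratio, as the sparse capitals in the first and second sequence show. Aebp2 has 3 starts in the table, with 4, 21 and 4 CpG. Rbbp5, with 16 CpG, fell short of the GC content alone (44%), while Aebp2 (48%) and Dpy30 (40.7%) missed both limits. Suz12 (41), Phf19 (38) and Ring1 (37) had the most CpG. The array does not tell which start was used, and these counts describe sequence alone.

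The PRC2 core showed no difference that passed the test. Ezh2, the methyltransferase of dividing cells, read 9.39, 9.71 and 9.41 on the WT arrays and 9.63, 9.55 and 9.61 on the Satb1-/- arrays. The Satb1-/- values lay inside the WT range, with a difference of 0.09 (SE 0.12, 95% interval -0.16 to 0.35, limma adjusted p = 0.893). Suz12, the scaffold on which PRC2 assembles, differed by 0.11 (interval -0.19 to 0.41), and Eed, which reads the PRC2 mark, by -0.08 (interval -0.42 to 0.27). The second probe set of Eed gave 0.04. Ezh1, the relative of Ezh2 found in resting cells, had the widest WT spread of PRC2, with 7.90, 8.53 and 7.57, and 7.78, 7.89 and 7.84 in Satb1-/-. Its difference of -0.16 had an interval from -0.61 to 0.28.

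Accessory subunits steer PRC2 to its targets, and the lowest value among them was that of Aebp2. Aebp2, a zinc-finger partner of PRC2, read 6.85, 7.03 and 6.92 in WT and 6.55, 6.41 and 6.38 in Satb1-/-. All 3 Satb1-/- values lay below all 3 WT values. The difference was -0.48 (SE 0.11, interval -0.72 to -0.25), with a limma adjusted p of 0.0593. It missed the threshold with all arrays and with any 1 array left out (-0.53 to -0.44), and passed it among genes above the median level (adjusted p = 0.0492), after a second quantile normalization (0.0248) and with array weights (0.0134).

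The other accessory genes lay closer to 0. Phf1, a Polycomb-like protein that binds methylated histone H3, read 5.56, 5.48 and 5.43 in WT and 5.22, 5.33 and 5.31 in Satb1-/-. Its groups did not overlap either, and the difference was -0.21 (SE 0.10, limma adjusted p = 0.538). The related Polycomb-like genes Mtf2, the main form in ES cells, and Phf19 differed by 0.07 and 0.20, with overlapping groups. Jarid2, which joins PRC2 in the complex that lacks the Polycomb-like proteins, differed by -0.21 (interval -0.52 to 0.11). Over the 9 PRC2 genes, 4 differences were above 0 and 5 below, with a median of -0.08, against 0.00 over all genes. The median turned to 0.10 without WT replicate 2 and to 0.02 without WT replicate 3.

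In PRC1, 0 of 17 measured genes passed the test (limma, adjusted p under 0.05). An unadjusted p under 0.05 was found for 3 (17.6%, against 10.5% of all genes): Pcgf2 and Phc3, which read higher, and Cbx7, which read lower. The ubiquitin ligase gene Rnf2 read 7.48, 7.74 and 7.82 in WT and 7.54, 7.54 and 7.73 in Satb1-/-. The groups overlapped, with a difference of -0.07 (SE 0.12, interval -0.34 to 0.20, limma adjusted p = 0.933). Its relative Ring1 differed by 0.12 (interval -0.11 to 0.34), with Satb1-/- values of 5.61, 5.63 and 5.64 that fell inside the WT range of 5.41 to 5.63 or just above it.

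The Pcgf proteins pair with the ligases, and each defines a form of PRC1. Pcgf2, found in the canonical form that holds a Cbx protein, read 7.23, 7.39 and 7.29 in WT and 7.55, 7.67 and 7.53 in Satb1-/-. All Satb1-/- values were above all WT values, and the difference was 0.28 (SE 0.10, interval 0.05 to 0.51, limma adjusted p = 0.335), a fold of 1.21. Bmi1, the other canonical Pcgf gene, differed by -0.15 (interval -0.43 to 0.12). The genes of the variant forms, which work without a Cbx protein, had overlapping groups: Pcgf1 differed by -0.12, Pcgf3 by 0.07, Pcgf5 by -0.15 and Pcgf6 by 0.08. Pcgf1 had the widest interval of all members (-0.61 to 0.36), with WT values of 5.67, 6.74 and 6.28 around Satb1-/- values of 6.20, 6.06 and 6.06.

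Cbx proteins read the PRC2 mark for canonical PRC1. Cbx7, the main Cbx gene of undifferentiated ES cells, read 7.80, 7.93 and 7.98 in WT and 7.61, 7.67 and 7.66 in Satb1-/-. The groups did not overlap, and the difference was -0.26 (SE 0.10, interval -0.48 to -0.03, limma adjusted p = 0.378). Cbx2 and Cbx8, which are known to take over as ES cells differentiate, differed by 0.22 (interval -0.13 to 0.57) and -0.12 (interval -0.38 to 0.14). The Cbx2 groups overlapped, with 6.75, 6.64 and 7.19 in WT and 7.26, 6.86 and 7.13 in Satb1-/-.

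Phc proteins link PRC1 particles to each other through their SAM domains. Phc3 read 5.40, 5.80 and 5.71 in WT and 5.98, 5.77 and 6.13 in Satb1-/-. The lowest Satb1-/- value lay below the highest WT value, and the difference was 0.32 (SE 0.14, interval 0.01 to 0.63, limma adjusted p = 0.443), with 0.33 for its second probe set. Phc2 differed by -0.07. Among the variant PRC1 subunits, Kdm2b, which binds unmethylated CpG islands, differed by -0.08, Yaf2 by -0.01 and L3mbtl2, of the form with Pcgf6, by -0.15. Rybp, the relative of Yaf2 that stimulates ubiquitin transfer, differed by 0.10, but by -0.33 for its dimmer probe set, so that its probe sets disagreed in sign. The PRC1 median was -0.07, with 7 differences above 0 and 10 below, and it turned to 0.03 without WT replicate 2.

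**Figure D2:**
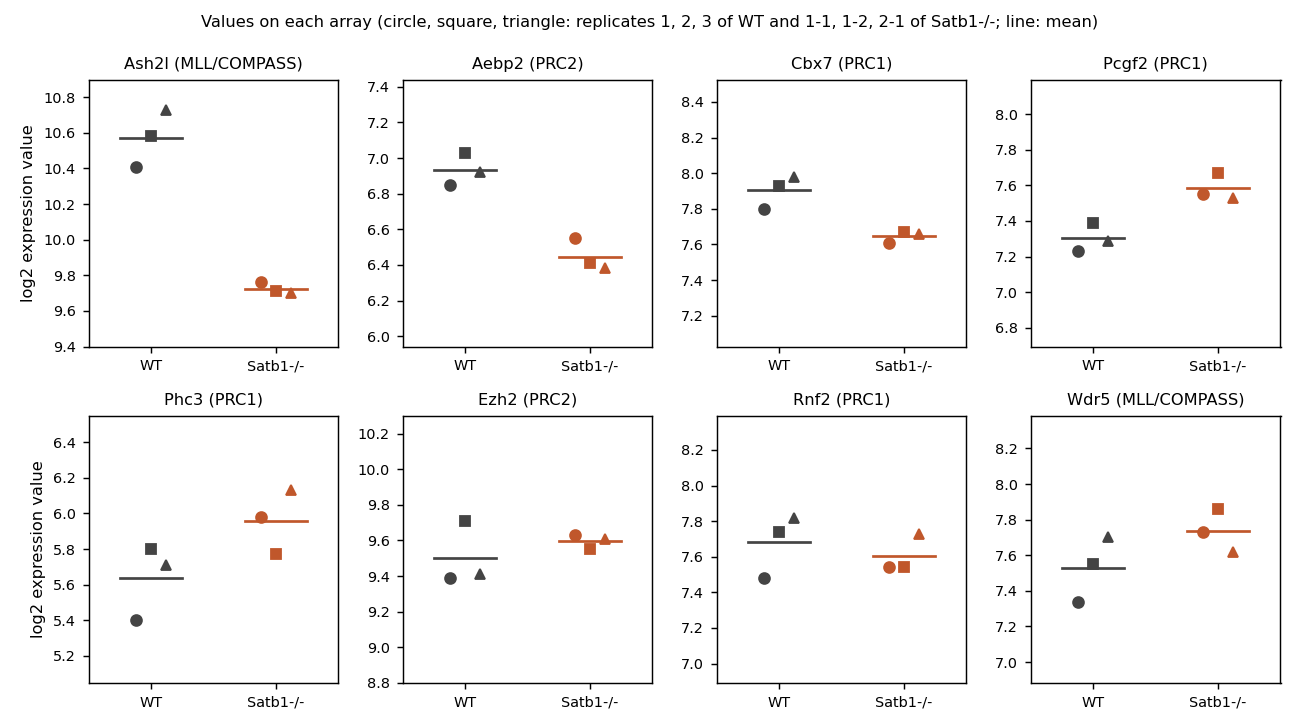
Log2 expression value (y axis) of 8 genes on each WT and Satb1-/- array, with the group mean as a line and an equal span of values in every panel. The groups of Ash2l, Aebp2, Cbx7 and Pcgf2 are apart, and those of Phc3, Ezh2, Rnf2 and Wdr5 overlap.

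Ash2l stood apart among the COMPASS genes. Together with Wdr5, Rbbp5 and Dpy30, the Ash2l protein forms the core that all methyltransferases of this family need for full activity. It read 10.41, 10.58 and 10.73 in WT and 9.76, 9.71 and 9.70 in Satb1-/-. The Satb1-/- values lay close together and all below the lowest WT value. The difference was -0.85 (SE 0.11, interval -1.10 to -0.60, limma adjusted p = 0.00456), and Ash2l was lower in 3 of 3 Satb1-/- arrays. It kept its call without any 1 array (-0.93 to -0.77, adjusted p 0.0043 to 0.0445), and missed the threshold when every probe set was tested (adjusted p = 0.0508).

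The partners of Ash2l in the core read slightly higher, without passing the test. Wdr5, the subunit that holds the methyltransferase in place, read 7.34, 7.55 and 7.70 in WT and 7.73, 7.86 and 7.62 in Satb1-/-. The groups overlapped, and the difference was 0.21 (SE 0.12, interval -0.07 to 0.48, limma adjusted p = 0.655). Rbbp5 differed by 0.14 (interval -0.09 to 0.37) and Dpy30 by 0.13 (interval -0.22 to 0.47). None of these intervals reached that of Ash2l, whose upper end was -0.60.

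The methyltransferases and cofactors of COMPASS had no call. Setd1a, the enzyme of the SET1A complex, read 6.93, 7.01 and 7.18 in WT and 6.91, 6.75 and 6.84 in Satb1-/-. Its groups did not overlap, although the nearest values were 6.93 and 6.91, and the difference was -0.21 (SE 0.11, limma adjusted p = 0.602). Its relative Setd1b differed by 0.19 (second probe set 0.26). Men1, the menin subunit of complexes with Kmt2a and Kmt2b, differed by 0.05. Kdm6b, a demethylase that removes the PRC2 mark and is not a stable subunit of COMPASS, differed by 0.11 (interval -0.14 to 0.36). Over the 9 genes, 7 differences were above 0 and 2 below, with a median of 0.11, which was 0.04 without WT replicate 1, 0.05 without WT replicate 2 and 0.21 without WT replicate 3.

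Kdm6a, the X-linked demethylase in complexes with Kmt2c and Kmt2d, read 6.36, 6.72 and 6.92 in WT and 6.68, 6.64 and 6.97 in Satb1-/-. The groups overlapped, with a difference of 0.10 (interval -0.24 to 0.44). Its Y-linked relative Uty, which is not among the 35 genes, read 6.15, 6.47 and 6.63 in WT and 4.90, 4.58 and 4.85 in Satb1-/-. It was lower by 1.64 (SE 0.14, limma adjusted p = 0.000705). The Satb1-/- values lay near the array medians of 4.69 to 4.85. Other genes of the Y chromosome were not examined here, so a change of Uty alone and a shift of the whole Y chromosome were not told apart.

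**Figure D3:**
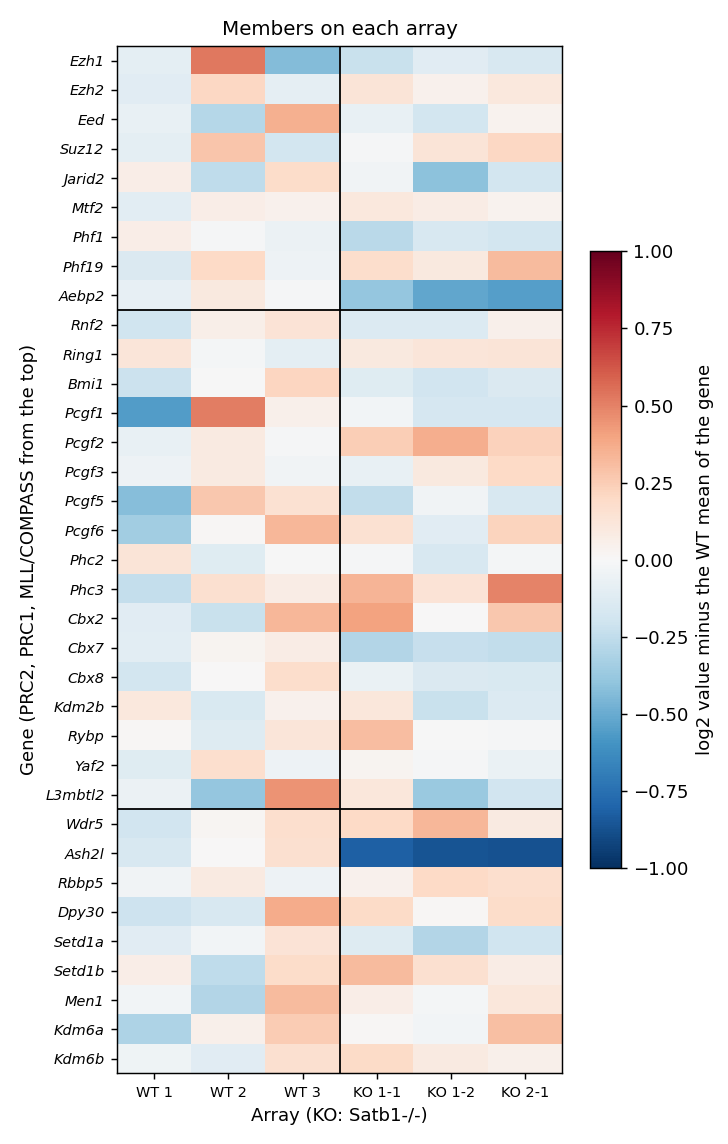
Log2 value of each of the 35 genes (rows) on each of the 6 arrays (columns), less the WT mean of the gene. Ash2l and Aebp2 are low in every Satb1-/- column, and 28 of the 35 rows have a larger SD over the WT columns than over the Satb1-/- columns.

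The members varied more among the WT arrays than among the Satb1-/- arrays. The median SD of a member was 0.18 in WT and 0.09 in Satb1-/-, against 0.16 and 0.11 over all genes, and 28 of 35 members had the larger SD in WT. WT replicate 1 was the lowest of the WT arrays for 20 members, and WT replicate 3 the highest for 18. Averaged over the 35 genes, after each gene's mean was subtracted, the arrays stood at -0.10, 0.03 and 0.11 in WT and at 0.02, -0.06 and 0.01 in Satb1-/-, so the WT range enclosed all Satb1-/- arrays. By complex, the same average ran from -0.03 to 0.13 in WT and from -0.08 to -0.01 in Satb1-/- for PRC2, from -0.14 to 0.12 and from -0.06 to 0.05 for PRC1, and from -0.11 to 0.20 and from -0.04 to 0.02 for MLL/COMPASS. In size, 30 of the 35 differences were under 0.25. The half-width of a member's 95% interval, which is not adjusted for the number of genes, was 0.22 to 0.48 (median 0.27). An interval clear of 0 was not enough to pass the adjusted threshold: Aebp2 missed it at -0.48, with an interval of -0.72 to -0.25. With 3 arrays a group, changes of such sizes in members without a call are therefore not excluded.

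Both members with the lowest differences lie where neighbouring genes were also shifted. Each gene was set beside the 20 nearest genes on either side along its chromosome, taken from genes above the median level and called brighter genes. Chromosome 8, which holds Ash2l, read lower in Satb1-/- than in WT as a whole, not only near this gene. Of its 570 brighter genes, 526 (92.3%) were lower in Satb1-/-, with a median difference of -0.29. Over the brighter genes of all chromosomes, the median difference was 0.02. On chromosomes 6, 11 and 17, the share of lower genes was 35.9%, 46.6% and 45.5%. Chromosomes 6 and 11 hold raised runs of their own, and the share was not taken on the remaining chromosomes. Of the 40 nearest neighbours of Ash2l, 34 were lower in Satb1-/- and 6 higher, with a median difference of -0.23. Set against the WT mean, the neighbourhood of Ash2l stood at -0.23, -0.29 and -0.29 on the 3 Satb1-/- arrays, and Ash2l itself at -0.81, -0.87 and -0.87. Only 1 of the 40 neighbours, and 6 of the 570 brighter genes of chromosome 8, had a lower difference than Ash2l. When each value was taken less its neighbourhood's median on the same array, the difference of Ash2l was -0.58 (SE 0.11, limma adjusted p = 0.0304), in a fit where 1.26% of all genes passed. This setting was chosen after seeing the data. The neighbours were not matched to Ash2l in level, so their median may not give the shift of genes as bright as Ash2l.

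Aebp2 lies on distal chromosome 6 beside a point where the direction turns: among brighter genes, Plekha5 alone, itself lower, lies between it and the raised genes before it. Its 20 brighter neighbours before it had a median of 1.04, with 19 higher and 14 called higher, and the 20 after it a median of -0.54, with 19 lower and 8 called lower. Of the latter, 11 had a lower difference than Aebp2, which places it in the middle of them. The median over both sides was 0.04, which describes neither, so a value of Aebp2 less that median (-0.59, adjusted p = 0.0385) has no clear meaning. Pcgf2 on chromosome 11, Cbx7 on chromosome 15 and Phc3 on chromosome 3 had neighbourhoods with medians of -0.01, 0.01 and 0.11. By a limit of 0.2 from the median of all brighter genes, Ash2l was the 1 member of 35 in a shifted neighbourhood. Aebp2 did not count as shifted by this limit because its opposite sides cancel in the median. Effects of Satb1 and shifts of whole chromosome regions shared by the arrays of either group cannot be told apart in this design. The differences do not tell whether a region shifted in the Satb1-/- or in the WT cells.

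**Figure D4:**
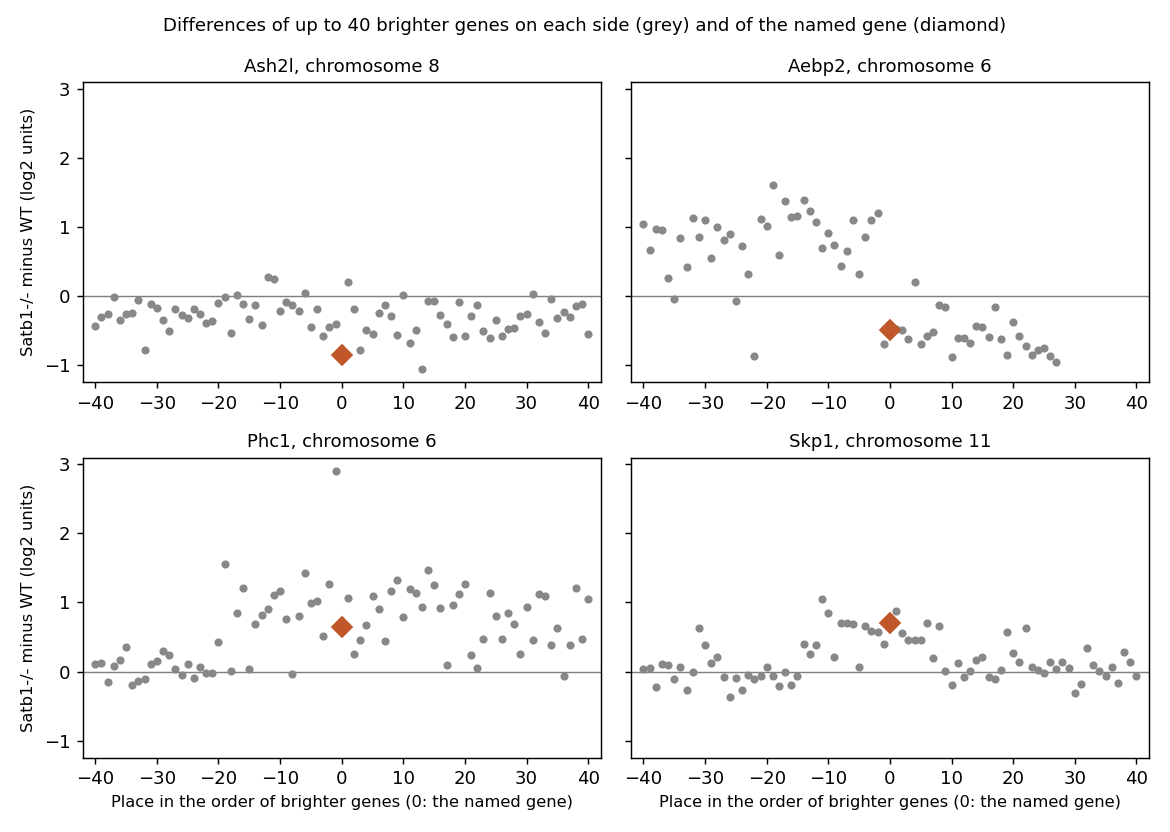
Difference between Satb1-/- and WT (y axis, log2 units) of a named gene (diamond) and of up to 40 brighter genes on each side in chromosome order (x axis, grey points). Ash2l lies below most of a lowered neighbourhood, Aebp2 at the start of a lowered run that follows a raised one, and Phc1 and Skp1 within raised runs.

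Further genes of the same pathways were given as lists. Of 29 measured other Polycomb genes, 2 rose and 0 fell (6.9% called, against 1.4% of all genes), with a median of 0.02. Phc1, the Phc gene that is high in ES cells, read 9.31, 9.21 and 9.48 in WT and 9.97, 9.94 and 10.01 in Satb1-/-, which made it 0.64 higher (SE 0.11, limma adjusted p = 0.017). On chromosome 6 it has 40 neighbours with a median of 0.94, and relative to them its difference was -0.32 (limma adjusted p = 0.372). Skp1, a ubiquitin ligase subunit found in the PRC1 form with Pcgf1, rose by 0.70 (limma adjusted p = 0.0182), among chromosome 11 neighbours with a median of 0.26. Phc1 lost its call without WT replicate 1 or 2 or any 1 Satb1-/- array (0.58 to 0.66), and Skp1 without WT replicate 1 or any 1 Satb1-/- array (0.61 to 0.76). Both lost it when Satb1-/- 1-1 and 1-2, which share a first number, were averaged as 1 sample (limma adjusted p = 0.0868 for Phc1 and 0.0663 for Skp1), where Ash2l kept its call (0.0359). Scmh1, another PRC1 partner, differed by 0.53 and missed the threshold (limma adjusted p = 0.0516).

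Of 21 measured other trithorax genes, 1 rose and 1 fell, Kdm5a and Uty (9.52% called, against 1.4% of all genes), with a median of -0.01. Kdm5a, a demethylase that removes the COMPASS mark, read 7.53, 7.66 and 7.65 in WT and 8.86, 8.72 and 8.74 in Satb1-/-, a rise of 1.16 (SE 0.10, limma adjusted p = 0.000735). Its neighbours on chromosome 6 had a median of 0.68, and relative to them its difference was 0.50 (limma adjusted p = 0.0695). The methyltransferase genes Kmt2a (-0.14), Kmt2b (0.04), Kmt2c (0.25) and Kmt2d (-0.03) did not pass the test. In all, 5 of the 85 measured Polycomb and trithorax genes (5.88%) were called, against 1.4% of all genes. The further lists hold 4 of these calls. All lists were chosen with earlier results of these data known, so this share cannot show an excess over the background. By the limit of 0.2, 4 of these 5 lie in shifted neighbourhoods, which hold 5 of the 85 (5.88%), Aebp2 not among them. Over all genes, 128 of the 279 called (45.9%) lie in shifted neighbourhoods, which hold 6.49% of all genes. The fifth, Uty, has too few neighbours on the Y chromosome for that count. These neighbourhoods were defined from the same differences as the calls.

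The labelled cell type and the genotype were checked on the same arrays. All 12 ES cell markers, among them Pou5f1, Sox2 and Nanog, were above the median level, with median levels of 9.08 to 9.56 on the arrays. Of them, 2 rose (16.7% called, against 1.4% of all genes), Nanog by 1.09 and Esrrb by 0.56. Nanog lies in the raised run of chromosome 6 that holds Phc1, with a neighbour median of 0.92, and its difference relative to its neighbours was 0.19 (limma adjusted p = 0.716). Relative to its own neighbours, Esrrb differed by 0.52 (limma adjusted p = 0.0732). The count of called ES cell markers fell to 1 without WT replicate 1 or any 1 Satb1-/- array. An unadjusted limma p under 0.05 was found for 5 of the 12 (41.7%, against 10.5% of all genes), 3 higher and 2 lower. Groups did not overlap for 3 higher and 3 lower markers (25% each, against 8.18% and 6.97% of all genes). Of these, Sox2 differed by 0.30, Pou5f1 and Dppa4 each by -0.39 and Tdgf1 by -0.06, all without a call. Satb1 itself read 5.12, 4.99 and 5.31 in WT and 4.38, 4.47 and 4.57 in Satb1-/-, with no overlap, and fell by 0.67 (SE 0.12, limma adjusted p = 0.022). All its Satb1-/- values lay below the array medians of 4.69 to 4.85, so the size of this fall is uncertain. Of 19 feeder fibroblast markers, 17 were above the median level and 0 passed the test. An unadjusted limma p under 0.05 was found for 3 (15.8%, against 10.5% of all genes), all of them higher. In direction, 16 of the 19 markers differed by more than 0 and 3 by less, with a median difference of 0.13. Their average after each gene's mean was subtracted ran from -0.24 to 0.03 in WT and from -0.02 to 0.21 in Satb1-/-. Of 14 trophectoderm markers, 7 were above the median level and 3 fell (Krt8, Krt18 and Krt19, with 21.4% called). Groups did not overlap for 5 lower markers (35.7%, against 6.97% of all genes) and 3 higher ones (21.4%, against 8.18%). The higher ones were Eomes (0.55), Tfap2c (0.33) and Tead4 (0.43), all without a call. The average of the 14 ran from 0.08 to 0.76 in WT, with the highest value on replicate 3, and from -0.40 to -0.25 in Satb1-/-. In the next lists, 12.5% of the endoderm markers and 9.09% of the neural and mesoderm markers were called. The averages of 16 primitive endoderm markers (9 above the median level, with Lama1 and Sparc called higher) and 11 early neural and mesoderm markers (3 above it, with Nes called lower) ran from -0.11 to -0.02 and from -0.04 to 0.13 in WT, and from 0.02 to 0.10 and from -0.10 to 0.02 in Satb1-/-. The endoderm count fell to 1 without WT replicate 1 or any 1 Satb1-/- array, the call of Nes was lost without any 1 of the 6 arrays, the trophectoderm count was 5 without WT replicate 3, and the feeder count 1 without WT replicate 2. The part of such cells in the differences of the Polycomb and trithorax genes was not tested.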

How the data were processed

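The authors deposited log2 values for 35557 probe sets on each array. RMA, which corrects background, normalizes between arrays and summarises probes, is named without a version in the submitters' processing notes. The 6 arrays had medians of 4.69 to 4.85, and precision is limited by their number. Genes were named from the platform annotation by probe sets with exactly 1 symbol (21789; 1621 had several and 12147 none), and the probe set with the highest mean of the 6 arrays stood for each of 19938 genes. Of these, 19856 were found by Entrez ID in RefSeq's GRCm38.p6 genes, which gave gene order .

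Satb1-/- and WT were compared with limma 3.58.1 (R 4.3.3; lmFit, eBayes, no covariate, Benjamini-Hochberg adjustment over all genes), which was tested on simulated data. The 36 genes and all lists were chosen with earlier results of these data known. Described in full were called members, members whose groups did not overlap (up to 4 a complex), Ezh2, Rnf2, Wdr5, Satb1, Kdm6a and Uty. A second probe set was given by its difference. Ring1, Ezh1, Pcgf1, Cbx2, Phc3, Scmh1, Pou5f1, Dppa4, Sox2, Tdgf1, Tfap2c and Tead4 were given further values after these were seen. Alternatives covered arrays left out, probe sets, dim genes, normalization, centring, array weights, clones 1-1 and 1-2 averaged, neighbourhoods and thresholds.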

Additional observations from a re-analysis of the deposited data

How the results depend on the processing

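Of 488 values of the 35 members under alternative settings, 2 moved by more than the SD of their replicates, 4 gained a call (all Aebp2) and 1 lost it (Ash2l, with every probe set tested); 11 members without a call, all with differences of at most 0.16 in size, changed sign under at least 1 setting. The count of changed PRC2 genes was 0, and 1 (Aebp2) among genes above the median level, after a second quantile normalization, with array weights, with values less the neighbourhood median (chosen after seeing the data), at an adjusted p under 0.1 and at an unadjusted p under 0.05. That of PRC1 was 0, and 3 at an unadjusted p under 0.05 (17.6%, against 10.5% of all genes). That of MLL/COMPASS was 1, and 0 with every probe set tested, where 35557 tests share the adjustment, and without the member in a shifted neighbourhood. Leaving out 1 array gave medians from -0.13 to 0.10 in PRC2, from -0.07 to 0.03 in PRC1 and from 0.04 to 0.21 in MLL/COMPASS. Relative to its neighbourhood, Phc1 turned to -0.32. All genes gave 279 calls, 65.9% of them higher. They gave 94 to 480 without 1 array (121, 95 and 94 without Satb1-/- replicate 1-1, 1-2 and 2-1, 480 without WT replicate 3), 83 with every probe set tested (81.9% higher), 425 after a second quantile normalization, 608 with array weights, 206 with arrays centred (77.2% higher), 252 with values less the neighbourhood median (40.5% higher), 117 with Satb1-/- 1-1 and 1-2 as 1 sample (76.9% higher), 484 at an adjusted p under 0.1, 109 under 0.01 and 2089 at an unadjusted p under 0.05. The cause of these changes was not tested. No paired analysis was possible because the groups share no replicate numbers.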

Other observations

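Developmental regulators that Polycomb complexes are known to hold silent in ES cells were given as a list of 36 genes, 34 of them measured and 9 above the median level. With limma, 0 passed at an adjusted p under 0.05 and 4 had an unadjusted p under 0.05, 1 higher and 3 lower (11.8%, against 10.5% of all genes). After a second quantile normalization 2 passed, and with array weights 1 passed. The median difference was -0.06, with 12 above 0 and 22 below, against 0.00 over all genes, and was -0.19 over the 9 genes above the median level. Eomes, a T-box factor of trophectoderm and mesendoderm, read 4.73, 4.74 and 4.79 in WT and 5.12, 5.55 and 5.24 in Satb1-/-, a difference of 0.55 (SE 0.13, limma adjusted p = 0.068). Cdkn1c, an imprinted cell cycle inhibitor gene, read 6.27, 6.08 and 6.53 in WT and 5.62, 5.90 and 5.59 in Satb1-/-, a difference of -0.59 (SE 0.14, limma adjusted p = 0.0746). The groups of both genes did not overlap. Wt1, a zinc-finger factor of kidney and gonad, differed by -0.39, and the homeobox gene Msx1 by -0.30. Eomes and Wt1 were not above the median level, while Cdkn1c and Msx1 were. The WT values of Eomes lay within the range of the array medians, 4.69 to 4.85. Eomes, Cdkn1c, Wt1 and Msx1 were named after their values were seen, as the 4 with an unadjusted p under 0.05.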
